A study of Homo sapiens with 12 samples.

Results

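A set of 10 zinc finger genes of the Kruppel-like factor (KLF) family, KLF2, KLF3, KLF4, KLF5, KLF6, KLF7, KLF9, KLF10, KLF11 and KLF13, was followed across 12 RNA-seq libraries of Hs 578T cells. The members were taken by symbol, as 10 of the 55242 gene symbols that were left in each count table after 523 ribosomal RNA symbols had been removed, and all 10 passed the filter on low counts in every comparison. Hs 578T is a triple-negative breast cancer line, and both cell populations had been transduced with a lentiviral vector, carrying either GFP as the control or full-length NRF2, the antioxidant transcription factor encoded by NFE2L2. Each population was grown for 8 h in medium with 0.8 mM cystine (Cyss), or in the same medium with no added cystine, which contained serum, methionine and glutamine in both arms. Every one of the 4 groups held 3 libraries: GFP with Cyss, GFP without (w/o) Cyss, NRF2 with Cyss and NRF2 w/o Cyss. All 4 groups therefore shared the line, the transduction and the medium change, and the reads of the NRF2 transgene and of the endogenous gene were summed under one symbol. The promoter driving the transgene is not given in the sources used here, and nothing in the labels says that the 3 libraries of a group came from separate cultures, so that p-values measure the spread between these libraries, which may be technical.

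KLF proteins bind GC-rich and CACCC-type elements through zinc fingers at the C terminus, and the family is divided by what the N terminus recruits. KLF2, KLF4, KLF5, KLF6 and KLF7 act mainly as activators that recruit acetyltransferases, although KLF4 also represses. KLF3 is a repressor that binds the CtBP corepressors, and KLF9, KLF10, KLF11 and KLF13 are repressors that bind SIN3A. Several members are immediate early or stress-responsive genes with short-lived transcripts, and in breast epithelium KLF4, KLF5 and KLF6 have been linked to proliferation and differentiation.

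The RefSeq sequences before the annotated start (GRCh38.p14) are shown for the 4 factors that were differentially expressed in at least 1 comparison, because they carry the element that the family itself recognizes. Capitals mark the GC box GGGCGG, searched on both strands, so that CCGCCC is the same element read on the other strand. Each run covers the 250 bases before the start, 5′ to 3′ on the gene's own strand.
KLF4, chr9:107489770-107490019, minus strand: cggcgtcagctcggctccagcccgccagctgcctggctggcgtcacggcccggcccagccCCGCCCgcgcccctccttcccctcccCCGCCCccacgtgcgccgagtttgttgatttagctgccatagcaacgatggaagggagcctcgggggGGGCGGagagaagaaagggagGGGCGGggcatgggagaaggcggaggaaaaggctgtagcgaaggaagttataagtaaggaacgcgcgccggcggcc
KLF6, chr10:3785210-3785459, minus strand: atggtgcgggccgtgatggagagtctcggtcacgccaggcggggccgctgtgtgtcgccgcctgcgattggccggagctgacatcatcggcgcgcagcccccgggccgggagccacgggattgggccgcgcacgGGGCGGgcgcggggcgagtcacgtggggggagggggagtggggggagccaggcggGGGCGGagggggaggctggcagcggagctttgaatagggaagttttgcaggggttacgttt
KLF13, chr15:31326585-31326834, plus strand: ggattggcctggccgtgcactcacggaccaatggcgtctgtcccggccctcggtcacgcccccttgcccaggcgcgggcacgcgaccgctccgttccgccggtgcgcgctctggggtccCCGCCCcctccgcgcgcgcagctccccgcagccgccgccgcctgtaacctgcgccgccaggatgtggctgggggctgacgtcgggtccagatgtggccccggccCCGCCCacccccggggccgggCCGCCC
KLF2, chr19:16324576-16324825, plus strand: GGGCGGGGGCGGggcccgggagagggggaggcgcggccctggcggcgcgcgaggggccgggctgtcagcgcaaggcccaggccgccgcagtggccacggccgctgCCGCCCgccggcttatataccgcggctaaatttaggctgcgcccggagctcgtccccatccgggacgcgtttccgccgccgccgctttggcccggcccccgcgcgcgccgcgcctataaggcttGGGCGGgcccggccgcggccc
The window of KLF4 held 4 GC boxes, that of KLF2 held 4, that of KLF13 held 3 and that of KLF6 held 2. RefSeq windows were matched for 8 members, with 13 alternative starts between them. A GC box was found in 8 of the 13 windows, belonging to 7 of the 8 genes, while 42.6% of all 35116 human windows of this length held one. The windows with a GC box had a GC content of 69.2% to 80%, and were the 8 above the median of all windows, 58%. The part of base composition in these matches was not tested. A window each of KLF4, KLF6, KLF7 and KLF11 also held the E-box CACGTG, which was present in 6.34% of all windows. None of the 13 windows held TGACNNNGC, the core of the antioxidant response element to which NRF2 binds, a match that 10.9% of all windows had. The AP-1 motif TGANTCA (6.57% of all windows) and the amino acid response motif TGATGNAA (3.14%), bound by ATF4 with C/EBP partners, had no match in them either. The cyclic AMP response element TGACGTCA had 1 match, in KLF11, against 1.65% of all windows. These are letter matches within 250 bases, and the windows of KLF3 and KLF10 were not analysed here.

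In GRCh37, KLF2 lies on chromosome 19 from 16435637 to 16439496 on the plus strand. KLF3 spans 38665818 to 38703138 on the plus strand of chromosome 4. KLF4 and KLF9 are both on the minus strand of chromosome 9, at 110247133 to 110252763 and at 72999520 to 73029573. KLF5 occupies 73629114 to 73651679 of chromosome 13, and KLF13 occupies 31619038 to 31727868 of chromosome 15, both on the plus strand. The minus strand of chromosome 10 holds KLF6 at 3818188 to 3827473, and that of chromosome 8 holds KLF10 at 103661012 to 103667953. KLF7 (207938861 to 208038580, minus strand) and KLF11 (10182976 to 10194963, plus strand) share chromosome 2. Values are summed over all exons, UTRs included. Annotated genes on the opposite strand overlapped 9.75% of the exon length of KLF4, 9.06% of KLF11, 3.91% of KLF3 (by KLF3-AS1) and 0.832% of KLF7. The authors counted reads without regard to strand, so that strand could not tell apart the reads within these overlaps. The other 6 members had no exonic overlap.

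Reads assigned to genes numbered between 27334100 and 44734600 per library, with a median of 32974300. Over all genes, GFP w/o Cyss replicate 3 stood apart from its group, at 4.84 on the first principal component (43.2% of the variance) where the other two were at -6.93 and -4.10, and member results that rest on it are given with and without it. NRF2 w/o Cyss replicate 1 lay apart on the second component (17.7% of the variance), at 7.96 beside 1.22 and -1.18, and had the highest share of reads outside annotated genes, 7.84% beside 5.82% to 6.69% in the other libraries. NFE2L2 was higher in NRF2 than in GFP cells both with Cyss (log2FC 0.84, adjusted p = 4.58e-10) and w/o Cyss (log2FC 0.79, adjusted p = 6.38e-06; edgeR quasi-likelihood test). The labels call the line epithelial. All 6 mesenchymal markers were present in every library, VIM at 142200 to 169000 normalized counts, FN1 at 787800 to 901000, COL1A1 at 225300 to 268200, SPARC at 110600 to 146600, CDH2 at 15160 to 17820 and ZEB1 at 7133 to 9314. The 6 epithelial markers were divided, with the keratins KRT18 (769 to 1469) and KRT8 (150.4 to 234.9) in every library, CDH1 at 3.07 to 13.8, and at most 1.02 for EPCAM, 1.09 for ESRP1 and 3.07 for KRT19. KRT18 was called higher w/o Cyss in both GFP (log2FC 0.39, lost without GFP w/o Cyss replicate 3) and NRF2 cells (log2FC 0.66), and ZEB1 w/o Cyss in NRF2 cells (log2FC 0.37) and in the interaction (0.35). CDH1 was called lower in NRF2 than in GFP cells w/o Cyss, on 3 to 12 reads per library. It lost this call with DESeq2 and without NRF2 w/o Cyss replicates 2 or 3, and passed the filter in 4 of the fits that left out 1 library. Of the receptor markers, ERBB2 (1157 to 1380) and ESR1 (6.97 to 13.1) were not called, and PGR was called higher in NRF2 cells with Cyss (0.879 to 8.01 in GFP and 17.9 to 25.5 in NRF2 cells) and w/o Cyss (0 to 2.01 and 12.5 to 20.9), though not by DESeq2 in either. Because KLF2 and KLF4 are abundant in endothelium and in leukocytes, markers of these were read as well. CDH5, VWF and TEK did not exceed 5.48 normalized counts in any library and CD3E had no read. PECAM1 was not found as a row, ITGAM did not exceed 1.15, and KDR (36.4 to 81.6 normalized counts), PTPRC (18.8 to 53.4) and CD14 (18.8 to 29.7) were the markers of these cells above 5.48 in every library.

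Expression levels of the members are given as normalized read counts, scaled by TMM over the 12 libraries, and log2FC values come from the fit of the libraries being compared. A gene was called a differentially expressed gene (DEG) at an adjusted p under 0.1 with a log2FC over 0.32 in size, and "higher" or "lower" always refers to the first-named group. Divided by exon length, so that genes can be compared, KLF6 was the most abundant member in GFP cells with Cyss, with a level of 1077 normalized counts per kb (1057 to 1089). KLF10 followed with a level of 818.6 per kb and KLF13 with 331.9 per kb. Below them came KLF3 (243.8 per kb), KLF4 (207.6 per kb), KLF7 (173.4 per kb), KLF9 (163.5 per kb), KLF11 (114.3 per kb) and KLF5 (85.6 per kb), and KLF2 was lowest with 29.8 per kb. Only KLF7 and KLF9 overlapped among neighbours in this order. In GFP cells w/o Cyss, KLF4 stood above KLF3 with a level of 340.5 per kb, and its libraries overlapped those of KLF13 (362.9 per kb). KLF6, KLF10 and KLF13 led in this order in all 4 groups, and KLF2 was last in all 4. The members therefore covered a wide range of levels within 1 cell line, while a single member moved little between groups: its highest group mean was between 1.11 times (KLF3) and 1.66 times (KLF4) its lowest. Over the 4 groups, the SD among the 3 libraries was between 1.57% and 11.1% of the group mean.

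**Figure D1:**
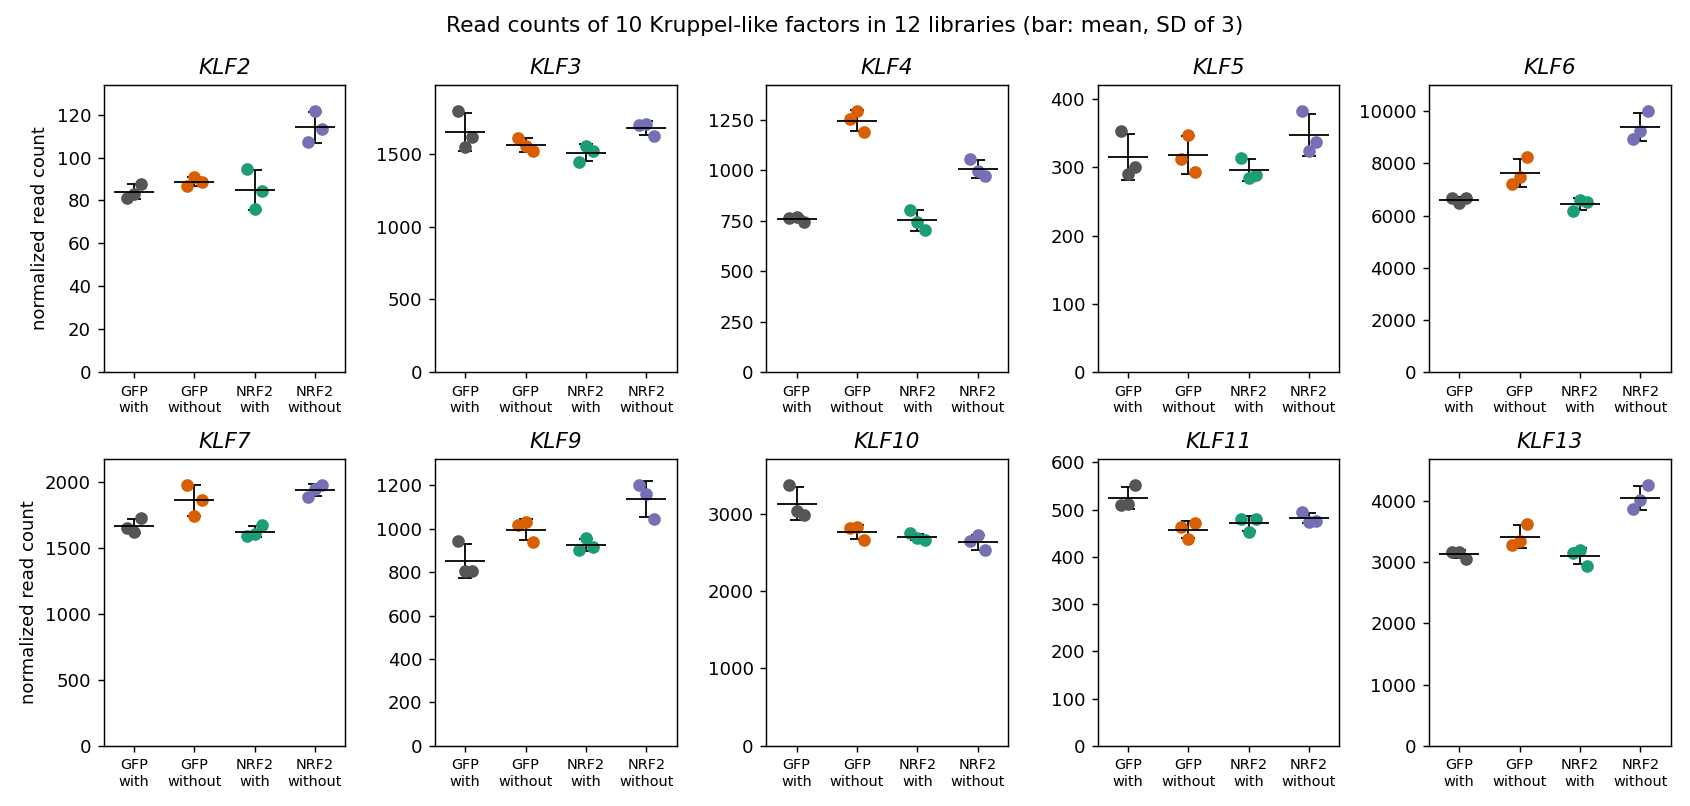
Normalized read counts (vertical axes, from 0) of the 10 factors in GFP and NRF2 cells with and without Cyss; each point is 1 library, the horizontal bar is the mean of 3 and the whiskers its SD. KLF4 was highest in GFP cells w/o Cyss (1191 to 1294), while KLF2, KLF6 and KLF13 were highest in NRF2 cells w/o Cyss, and KLF10 was highest in GFP cells with Cyss.

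The first comparison asked how Cyss deprivation altered the factors in control cells. Of the 10 members, KLF4 was called higher in GFP cells w/o Cyss and none was called lower. Of all 17452 genes tested, 1.57% were called higher and 0.533% lower, and the DESeq2 Wald test gave the same 2 counts for the members. KLF4 was described first as a gut-enriched factor and is known as a reprogramming factor. KLF4 had 765.8, 770.1 and 745 normalized counts with Cyss and 1256, 1294 and 1191 w/o Cyss. The libraries of the groups lay far apart, and the level was 1.64 times higher w/o Cyss (log2FC 0.72, SE 0.0508, 95% interval 0.61 to 0.83, adjusted p = 1.39e-06). Without GFP w/o Cyss replicate 3 the log2FC was 0.75 (adjusted p = 2.53e-06). In bulk RNA, a level per library cannot separate more transcript per cell from a larger share of cells that express the gene.

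Among the other activators, KLF6, first cloned as a core promoter-binding factor and a candidate tumor suppressor, had 6686, 6486 and 6669 normalized counts with Cyss and 7216, 7465 and 8255 w/o Cyss. All 3 libraries w/o Cyss lay above all 3 with Cyss, but the log2FC of 0.21 (SE 0.0485, adjusted p = 0.0306) was under the fold threshold. Counted by the p threshold alone, KLF4, KLF6 and KLF9 were higher and KLF10 lower, as were 3.11% and 2.81% of all genes. The highest value was that of the library that stood apart, and the log2FC was 0.15 (adjusted p = 0.0756) without it. KLF7, a factor known from neuronal differentiation, had 1650, 1623 and 1728 normalized counts with Cyss and 1976, 1743 and 1862 w/o Cyss. These groups did not overlap either, with a log2FC of 0.16 that missed the p threshold (adjusted p = 0.105). KLF5, a pro-proliferative factor of basal epithelium, ranged from 290.4 to 353.5 with Cyss and from 292.7 to 348.2 w/o Cyss, and its groups overlapped almost entirely (log2FC 0.02, 95% interval -0.18 to 0.22). KLF2, the shear stress-induced factor of endothelium and a regulator of T cell quiescence, was at 81.0 to 87.9 with Cyss and 86.5 to 91.1 w/o Cyss (log2FC 0.08, 95% interval -0.16 to 0.33). Its counts rested on 72 to 119 reads per library over the whole series, the fewest of the 10.

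The repressors were mixed in direction, and none was a DEG in GFP cells. KLF9, a glucocorticoid- and thyroid hormone-inducible gene, had 942.1, 803.7 and 805.6 normalized counts with Cyss and 1017, 1030 and 939.5 w/o Cyss. One library with Cyss lay just above the lowest w/o Cyss, and the log2FC of 0.23 (SE 0.0673, adjusted p = 0.0855) was under the fold threshold. KLF10, the TGF-β-inducible early gene, had 3371, 3029 and 2984 with Cyss and 2810, 2823 and 2661 w/o Cyss. The groups did not overlap and the log2FC was -0.17 (SE 0.0502, adjusted p = 0.0856), again under the fold threshold, and without GFP w/o Cyss replicate 3 it was -0.15 (adjusted p = 0.212). KLF11, the second TGF-β-inducible member, had 510.2, 511.9 and 552.6 normalized counts with Cyss and 463.9, 438.1 and 471.4 w/o Cyss (log2FC -0.19, adjusted p = 0.123), and KLF10 and KLF11 were the pair whose libraries w/o Cyss all lay lower. KLF13, a factor studied for late induction of chemokine expression in T cells, ranged from 3054 to 3168 with Cyss and from 3283 to 3630 w/o Cyss, without overlap, at a log2FC of 0.13 (adjusted p = 0.143) that was 0.087 (adjusted p = 0.360) without GFP w/o Cyss replicate 3, the highest library. KLF3, known from erythroid and adipocyte differentiation, overlapped between groups (1544 to 1794 and 1517 to 1610, log2FC -0.07). Counted together, 4 members lay wholly higher w/o Cyss (KLF4, KLF6, KLF7 and KLF13) and 2 wholly lower, against 10.8% and 13.1% of all genes. The median log2FC of the members was 0.11, beside 0.00153 for all genes.

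The same comparison was made in NRF2 cells, where more members, and also more of all genes, were called than in GFP cells. Whether the 2 responses differed is given by the interaction below. KLF2, KLF4, KLF6 and KLF13 were higher w/o Cyss and no member was lower, with the same counts by the DESeq2 Wald test. Of 17266 genes, 6.81% were called higher and 5.14% lower, beside 1.57% and 0.533% of the genes tested in GFP cells. KLF6 had 6192, 6614 and 6532 normalized counts with Cyss and 8941, 9246 and 10010 w/o Cyss. The gap between the groups was several times their spread, and the level was 1.46 times higher (log2FC 0.55, SE 0.0475, 95% interval 0.45 to 0.65, adjusted p = 9.40e-07). KLF4 rose from 805.4, 745.7 and 704.4 to 1056, 995.5 and 971.3, 1.34 times (log2FC 0.43, SE 0.0671, 95% interval 0.28 to 0.57, adjusted p = 3.23e-04). Its 3 libraries w/o Cyss all stayed under the lowest of GFP cells w/o Cyss. KLF13 had 3152, 3204 and 2947 normalized counts with Cyss and 3867, 4019 and 4268 w/o Cyss. This was a 1.31-fold difference with no overlap (log2FC 0.39, SE 0.0497, adjusted p = 4.77e-05). KLF2 had 94.6, 75.8 and 84.2 normalized counts with Cyss and 107.4, 121.7 and 113.5 w/o Cyss, likewise without overlap but with a wider spread (log2FC 0.44, SE 0.130, 95% interval 0.16 to 0.71, adjusted p = 0.0267). The call of KLF2 was lost without NRF2 with Cyss replicate 2 (log2FC 0.36, adjusted p = 0.124) and without NRF2 w/o Cyss replicate 2 (log2FC 0.39, at an adjusted p just over 0.1), whereas the calls of KLF4, KLF6 and KLF13 were kept with any 1 library left out.

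A further 4 members passed the p threshold in NRF2 cells with a log2FC under 0.32, so that by p alone 8 members were higher and 0 lower, against 15.2% and 13.8% of all genes. KLF9 had 903.6, 956.4 and 914.4 normalized counts with Cyss and 1203, 1162 and 1043 w/o Cyss, close to the fold threshold (log2FC 0.30, SE 0.0665, adjusted p = 0.00465). It was called in 2 of the 6 fits that left out 1 library, at 0.33 without NRF2 with Cyss replicate 2 and 0.37 without NRF2 w/o Cyss replicate 3. KLF7 ranged from 1588 to 1672 with Cyss and from 1886 to 1978 w/o Cyss (log2FC 0.26, adjusted p = 0.00118). KLF5 ranged from 284.4 to 314.1 and from 324.3 to 382.7 (log2FC 0.24, adjusted p = 0.0674), and KLF3 from 1442 to 1556 and from 1624 to 1707 (log2FC 0.16, adjusted p = 0.0447). In each of these genes the groups did not overlap. The TGF-β-inducible pair was the exception, with KLF10 at 2663 to 2745 with Cyss and 2527 to 2719 w/o Cyss (log2FC -0.03, 95% interval -0.14 to 0.07) and KLF11 at 451.8 to 480.3 and 474.7 to 494.3 (log2FC 0.04, 95% interval -0.11 to 0.18). Thus 8 of 10 members lay wholly higher w/o Cyss and 0 wholly lower, against 18.7% of all genes in either direction, and the members' median log2FC was 0.28 beside -0.01 for all genes.

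**Figure D2:**
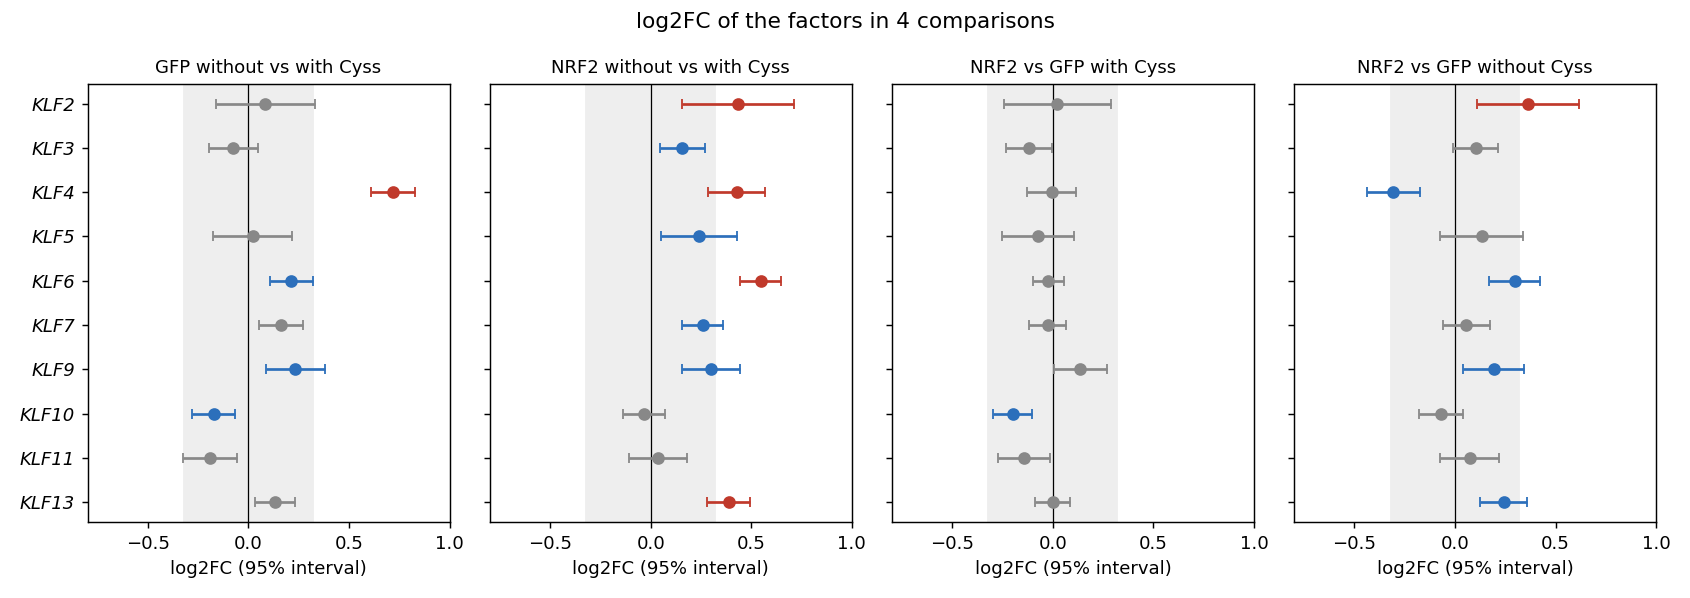
Fitted log2FC (horizontal axes, 95% interval) of the 10 factors in the 4 pairwise comparisons; the shaded band marks log2FC under 0.32 in size, red points are DEGs, blue points passed the adjusted p threshold only and grey points neither. Red points are KLF4 alone in GFP cells, KLF2, KLF4, KLF6 and KLF13 in NRF2 cells, none between populations with Cyss and KLF2 w/o Cyss.

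Between the populations in the presence of Cyss, no member was a DEG, while 1.36% of 17449 genes were called higher and 0.201% lower in NRF2 cells by edgeR. Of the 10 members, 4 had an unadjusted p under 0.05 in edgeR, beside 3321 of the 17449 genes, and the DESeq2 Wald test also called no member. KLF10 had the log2FC of greatest size, at 3371, 3029 and 2984 normalized counts in GFP cells and 2745, 2685 and 2663 in NRF2 cells. These groups did not overlap, and the log2FC of -0.20 (SE 0.0461, adjusted p = 0.0243) was under the fold threshold. By the p threshold alone, 1 member was lower and 0 higher in NRF2 cells, against 2.28% and 4.15% of all genes. KLF11 also lay wholly lower in NRF2 cells (510.2 to 552.6 against 451.8 to 480.3), at a log2FC of -0.14 that missed the p threshold (adjusted p = 0.218). For KLF4, KLF6 and KLF13 the 95% intervals of the log2FC were -0.13 to 0.12, -0.10 to 0.05 and -0.09 to 0.09. No member lay wholly higher in NRF2 cells and 2 lay wholly lower, against 10.7% and 14.8% of all genes, and the log2FC of the remaining members ran from -0.12 for KLF3 to 0.14 for KLF9. The median log2FC of the members was -0.02, beside -0.00392 for all genes.

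Without Cyss, KLF2 was the DEG of the family between the populations, higher in NRF2 cells, where 5.98% of 17297 genes were called higher and 4.09% lower. GFP cells w/o Cyss had 86.5, 91.1 and 88.8 normalized counts of KLF2 and NRF2 cells w/o Cyss had 107.4, 121.7 and 113.5. The groups did not overlap (log2FC 0.36, SE 0.117, 95% interval 0.11 to 0.62, adjusted p = 0.0452), but the call was lost with the DESeq2 Wald test (adjusted p = 0.133) and without GFP w/o Cyss replicate 1 (adjusted p = 0.136), GFP w/o Cyss replicate 2 (adjusted p = 0.116) or NRF2 w/o Cyss replicate 2 (adjusted p = 0.137). Another 4 members passed the p threshold below the fold threshold, which made 4 higher and 1 lower by p alone, against 14% and 14.7% of all genes. KLF4 was at 1191 to 1294 normalized counts in GFP and 971.3 to 1056 in NRF2 cells (log2FC -0.31, SE 0.0599, adjusted p = 0.00484). KLF6 was at 7216 to 8255 in GFP and 8941 to 10010 in NRF2 cells (log2FC 0.30, SE 0.0587, adjusted p = 0.00507). KLF13 was at 3283 to 3630 and 3867 to 4268 (log2FC 0.24, adjusted p = 0.00885), and KLF9 at 939.5 to 1030 and 1043 to 1203 (log2FC 0.19, adjusted p = 0.0692). KLF4 and KLF6 lay close to the fold threshold, and without GFP w/o Cyss replicate 3 both were DEGs, at log2FC -0.33 for KLF4 (adjusted p = 0.00729) and 0.36 for KLF6 (adjusted p = 0.00145). The same held without NRF2 w/o Cyss replicate 1, at -0.34 for KLF4 and 0.33 for KLF6. In all, 6 members lay wholly higher and 1 wholly lower in NRF2 cells, against 18.1% and 19.7% of all genes. These 4 comparisons share libraries in pairs, so that their values are given side by side and are not independent of each other.

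Whether the response to Cyss deprivation differed between the populations was tested directly, as the interaction in a fit of all 12 libraries, called at an adjusted p under 0.1. Of 17674 genes, 15.1% were called, 8.97% with a more positive response in NRF2 cells and 6.13% with a more negative one. Among the members, KLF3, KLF6 and KLF13 were called with the more positive response in NRF2 cells and KLF4 with the more negative one. KLF6 had the lowest adjusted p of the members, with an interaction log2FC of 0.33 (SE 0.0705, adjusted p = 0.00680), from a response of 0.21 in GFP and 0.55 in NRF2 cells. For KLF13 the responses were 0.13 and 0.39, and the difference was 0.26 (SE 0.0681, adjusted p = 0.0261). KLF4 responded in both populations, by 0.72 in GFP and 0.43 in NRF2 cells, and the difference of -0.29 (SE 0.0826, adjusted p = 0.0356) was the only negative one of the 10. KLF4, KLF6 and KLF13 were called with any 1 of the 12 libraries left out, and the values without GFP w/o Cyss replicate 3 were -0.32, 0.40 and 0.30.

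KLF3 was the least certain of these calls. Its responses were -0.07 in GFP and 0.16 in NRF2 cells, neither of them a DEG, and the interaction of 0.23 (SE 0.0768, adjusted p = 0.0659) was called in 5 of 12 fits that left out 1 library and was lost without GFP w/o Cyss replicate 3 (0.22, adjusted p = 0.106). The other 6 libraries whose omission ended it were GFP with Cyss replicate 1, GFP w/o Cyss replicate 2, NRF2 with Cyss replicates 1 and 3 and NRF2 w/o Cyss replicates 1 and 2, with adjusted p between 0.109 and 0.171. KLF2 had an interaction of 0.35, a larger value than that of KLF6, but with an SE of 0.163 it was not called (adjusted p = 0.188). KLF11 (0.23, adjusted p = 0.107), KLF5 (0.22, adjusted p = 0.312) and KLF10 (0.14, adjusted p = 0.220) were not called, nor were KLF7 (0.09) and KLF9 (0.07), for which the 95% intervals were -0.05 to 0.24 and -0.14 to 0.27. The median interaction of the members was 0.22, beside -0.01 for all genes.

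**Figure D3:**
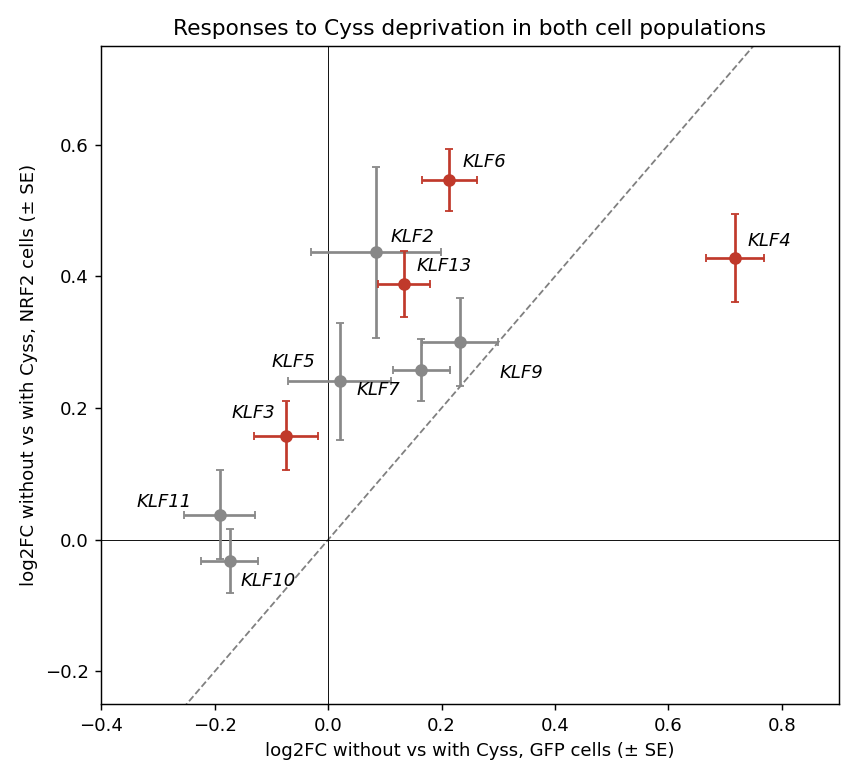
The log2FC w/o against with Cyss in GFP cells (horizontal axis) and in NRF2 cells (vertical axis), with the SE of each fit; the dashed line marks equal responses and red points were called by the interaction test. KLF4 is the only point below the line, at 0.72 and 0.43, and KLF6 lies above it at 0.21 and 0.55.

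Across the 12 libraries, the members fell into differing patterns. As a description over libraries that come from 4 groups of 3, Pearson's r of log2 CPM between KLF6 and KLF13 was 0.97, the highest of the 45 pairs. KLF2 had r = 0.83 with KLF6 and 0.85 with KLF13, while KLF4 had 0.57 with KLF6. KLF10 correlated negatively with KLF6 (r = -0.54) and with KLF13 (r = -0.53), and its highest r was 0.52, with KLF11. Among 13527 genes that averaged 50 or more normalized counts, those most like KLF4 were LINC00900 (r = 0.99), DDIT4 (r = 0.99), an inhibitor of mTORC1 induced by stress, and SLC1A4 (r = 0.97), a neutral amino acid transporter. Those most like KLF6 were IL1B (r = 0.99), an inflammatory cytokine, RND3 (r = 0.99), an atypical small GTPase, and ERRFI1 (r = 0.99), a feedback inhibitor of EGFR. KLF13 was most like AKAP12 (r = 0.98), a scaffold of protein kinase A, JARID2 (r = 0.98), a component of the Polycomb complex, and AFAP1 (r = 0.98), an actin-binding protein. KLF2 was most like CCDC19 (r = 0.94), ZSWIM4 (r = 0.94) and NES (r = 0.94), which encodes nestin.

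The 3′ UTRs of the members were read for AU-rich elements, since many immediate early transcripts carry them. Over 10908 tested genes with a canonical 3′ UTR of at least 200 bases, the median density of ATTTA was 1.92 per kb. The densities of the members ranged from 0.893 per kb in KLF13 to 3.03 per kb in KLF5, and 8 of 10 lay above that median. These 8 had a higher density than between 54% (KLF3) and 71% (KLF5) of these genes. KLF6 was the other member under the median, at 1.69 per kb. The longer motif TTATTTATT was found in KLF5 alone of the members, and in 10.6% of these genes.

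Of 16 other genes of the SP/KLF family, 8 passed the filter on low counts in these libraries. KLF17 was lower in GFP cells w/o Cyss (139 ± 12.6 against 101 ± 5.25 normalized counts, SD, n = 3; log2FC -0.45, edgeR adjusted p = 0.0444), and no other of the 8 was a DEG there. The call of KLF17 was kept in 2 of the 6 fits that left out 1 library (log2FC -0.53 to -0.40), and was lost without GFP with Cyss replicates 1 or 3 or GFP w/o Cyss replicates 2 or 3. In NRF2 cells KLF12, a CtBP-binding repressor closely related to KLF3, was higher w/o Cyss and the other 7 were not called. KLF17 was lower there by the p threshold alone (log2FC -0.31, edgeR adjusted p = 0.0753). Its interaction was 0.14 (adjusted p = 0.622). By p alone KLF16 (0.17), SP1 (0.14) and SP2 (0.22) were higher in NRF2 cells w/o Cyss. KLF12 had 1555, 1531 and 1471 normalized counts with Cyss and 2054, 2016 and 1917 w/o Cyss, and the groups lay well apart (log2FC 0.40, SE 0.0530, adjusted p = 7.11e-05). In GFP cells its libraries overlapped, at 1470 to 1632 with Cyss and 1462 to 1622 w/o Cyss, and the interaction was 0.42 (SE 0.0777, adjusted p = 0.00290). Between populations w/o Cyss, KLF12 (log2FC 0.40, adjusted p = 0.00120) and SP6 (log2FC 0.55, adjusted p = 0.0553, from 29.3 ± 1.62 to 42.8 ± 4.55 normalized counts, SD, n = 3) were higher in NRF2 cells. SP6 was lost with the DESeq2 Wald test and in 5 of 6 fits that left out 1 library, kept only without NRF2 w/o Cyss replicate 2. KLF16 lay just under the fold threshold there (723.5 to 868.1 against 978.3 to 1054 normalized counts, log2FC 0.319, adjusted p = 0.0119) and was called under 4 of 8 alternatives, DESeq2 among them, and in 3 of 6 fits that left out 1 library. With Cyss, none of the 8 was called between populations by edgeR or DESeq2 (1 had an unadjusted p under 0.05 in edgeR, as had 3321 of 17449 genes). KLF16, a SIN3A-binding relative of KLF9 and KLF13, was called by the interaction as well (0.33, adjusted p = 0.0403), in 9 of 12 fits that left out 1 library, but not without GFP w/o Cyss replicate 1 or NRF2 with Cyss replicates 2 or 3.

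The proteins through which the family acts were followed by 16 cofactor and regulator genes, all of which passed the filter. None was a DEG in any of the 4 pairwise comparisons, where between 2 and 7 of them had an unadjusted p under 0.05 in edgeR, and DESeq2 called none either. Over all genes, between 3160 of 17452 and 5962 of 17297 had such a p. MEF2C, a factor that activates KLF2 in endothelium, was lower in GFP cells w/o Cyss by the p threshold alone (672.8 to 683.5 against 536.4 to 568.4 normalized counts, log2FC -0.31, adjusted p = 0.00686), and it was a DEG without GFP w/o Cyss replicate 2 (-0.33). In NRF2 cells w/o Cyss, MEF2C (-0.19) and FBXW7 (-0.15) were lower by p alone, and EP300 (0.19), CREBBP (0.19) and MEF2D (0.25) higher. Between populations w/o Cyss, EP300 (0.25), CREBBP (0.27), MEF2D (0.28) and SIN3B (0.14) were higher in NRF2 cells by p alone. Over all genes, the interaction called 8.97% with a more positive and 6.13% with a more negative response in NRF2 cells. Of the 16 genes it called 3, all more positive. These were the acetyltransferases EP300 (0.24, adjusted p = 0.0355) and CREBBP (0.25, adjusted p = 0.0686), and WWP1 (0.23, adjusted p = 0.0634), a ubiquitin ligase that acts on KLF2 and KLF5. With 1 of the 12 libraries left out, EP300 was called in 10 fits (0.19 to 0.28), CREBBP in 5 (0.15 to 0.29) and WWP1 in 6 (0.17 to 0.27). Scaling by library size only ended the calls of CREBBP and WWP1. GFP w/o Cyss replicate 2 and NRF2 with Cyss replicate 3 were libraries whose omission ended all 3 calls. CREBBP was also lost without GFP with Cyss replicates 1 or 3, GFP w/o Cyss replicate 3, NRF2 with Cyss replicate 2 or NRF2 w/o Cyss replicate 1, and WWP1 without GFP with Cyss replicate 1, GFP w/o Cyss replicate 1, NRF2 with Cyss replicate 2 or NRF2 w/o Cyss replicate 2. The corepressor genes CTBP1, CTBP2, SIN3A, SIN3B, HDAC1 and HDAC2 had interaction values from -0.04 to 0.07.

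Of 12 genes described as targets of KLF proteins, 8 passed the filter. NOS3, S1PR1, MAOA and MAOB did not, with at most 3 reads in any library. Which member acts on each gene, and in which direction, was not tested. ATF3, a stress-induced bZIP factor, was the DEG of the list in GFP cells, with 112.2, 85.3 and 81.7 normalized counts with Cyss and 182.1, 228.3 and 240.1 w/o Cyss (log2FC 1.22, SE 0.139, adjusted p = 1.57e-04). In NRF2 cells 6 of the 8 were called higher w/o Cyss and none lower, against 6.81% and 5.14% of all genes. LGALS3 was lower by the p threshold alone (log2FC -0.21, edgeR adjusted p = 0.0106). The lists were chosen with earlier results of these data known, so that their shares beside those of all genes are descriptions and not tests. THBD, encoding the anticoagulant thrombomodulin, had 75.2, 69.5 and 61.2 normalized counts in NRF2 cells with Cyss and 157.5, 178 and 189.1 w/o Cyss (log2FC 1.35, SE 0.126, adjusted p = 1.99e-06). CDKN1A, encoding a cell cycle inhibitor, had 1280, 1293 and 1249 with Cyss and 2798, 3328 and 4253 w/o Cyss (log2FC 1.44, SE 0.102, adjusted p = 1.28e-07). The NRF2 libraries w/o Cyss lay above every GFP library for both genes. The others called higher were ATF3 (log2FC 1.12), CCND1, encoding cyclin D1 (0.61), SMAD7, an inhibitor of TGF-β signaling (0.42), and PDGFA, a growth factor gene (0.36). All of these were kept with any 1 library left out, except PDGFA, lost without NRF2 w/o Cyss replicate 3 (0.31) and with scaling by library size only. In GFP cells THBD had log2FC 0.44 (adjusted p = 0.156) and CDKN1A 0.45 (adjusted p = 0.114), where the highest CDKN1A value, 2295 beside 1337 and 1524, was that of GFP w/o Cyss replicate 3. With 1 library left out, the CDKN1A value ranged from 0.18 to 0.61 and that of THBD from 0.32 to 0.56, and of these fits the one without GFP w/o Cyss replicate 1 called each gene. CDKN1A was also called in GFP cells in 3 of 8 other alternatives (scaling by library size only, no filter and the replicate number as a block) and THBD in 1 (no filter).

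**Figure D4:**
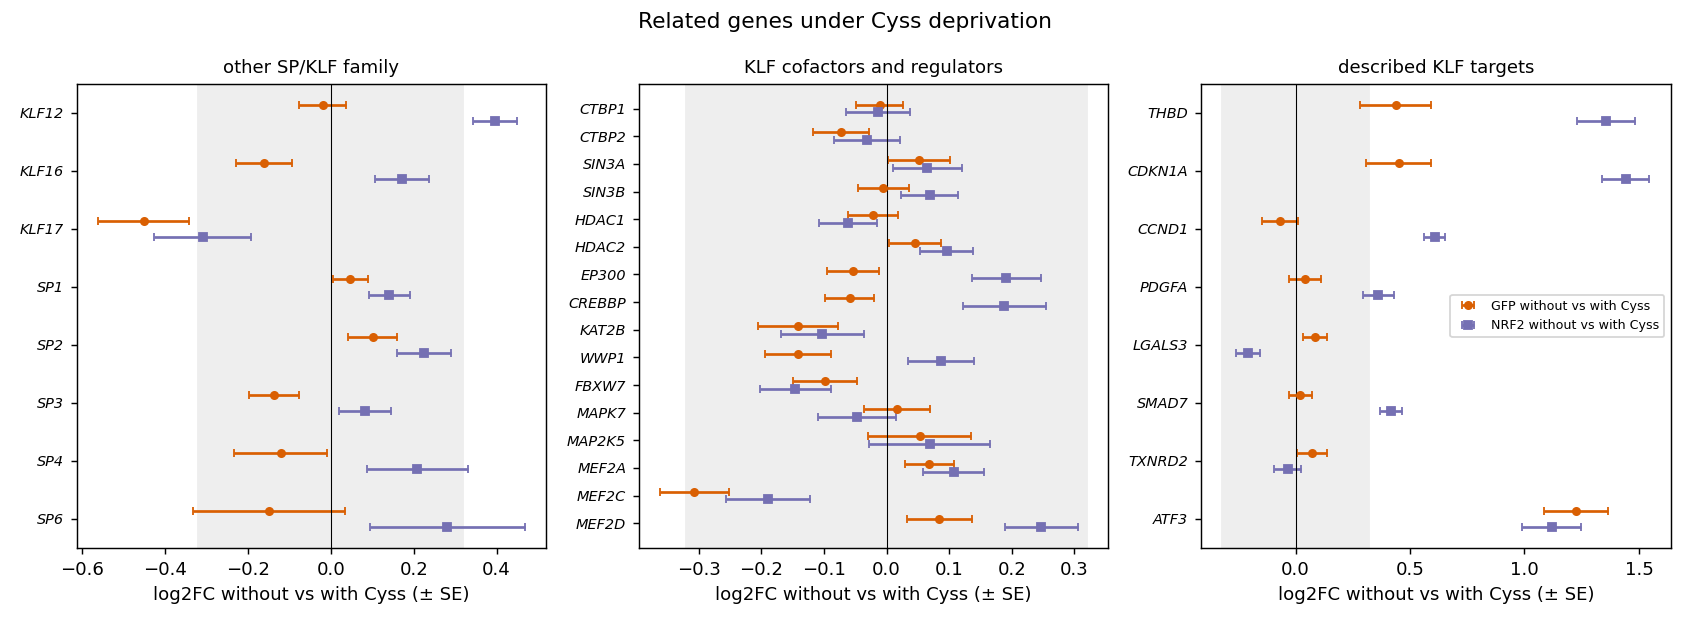
The log2FC w/o against with Cyss (horizontal axes, ± SE) of the other SP/KLF genes, the cofactors and regulators and the described targets, in GFP cells (circles) and NRF2 cells (squares); the shaded band marks log2FC under 0.32 in size. No cofactor was a DEG, and THBD and CDKN1A lie at 0.44 and 0.45 in GFP cells and at 1.35 and 1.44 in NRF2 cells.

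With Cyss, no listed target was called between populations by edgeR or DESeq2 (1 of the 8 had an unadjusted p under 0.05 in edgeR, as had 3321 of 17449 genes). Without Cyss, where 5.98% of all genes were called higher and 4.09% lower, THBD (log2FC 0.99), CDKN1A (1.01), CCND1 (0.70) and PDGFA (0.33) were higher in NRF2 cells. PDGFA lost this call without GFP w/o Cyss replicates 1 or 2 or NRF2 w/o Cyss replicate 3 (0.28 to 0.42) and with scaling by library size only, and its interaction was called in 8 of 12 fits that left out 1 library, but not without GFP with Cyss replicate 1, GFP w/o Cyss replicates 1 or 2 or NRF2 with Cyss replicate 2. By the p threshold alone, SMAD7 was higher (log2FC 0.28, edgeR adjusted p = 0.00527) and LGALS3 lower (-0.28, adjusted p = 0.00688) in NRF2 than in GFP cells w/o Cyss. Over all genes, 8.97% were called with a positive and 6.13% with a negative interaction. The interaction was positive and called for THBD (0.92, adjusted p = 0.00888), CDKN1A (0.99, adjusted p = 0.00615), CCND1 (0.67, adjusted p = 7.84e-04), SMAD7 (0.40, adjusted p = 0.00152) and PDGFA (0.32, adjusted p = 0.0514), and negative for LGALS3, which encodes galectin 3 (-0.29, adjusted p = 0.0262). For ATF3 it was -0.11 (95% interval -0.54 to 0.33), with 182.1 to 240.1 normalized counts in GFP and 177.3 to 246.8 in NRF2 cells w/o Cyss. The targets and the members that can act on them were measured in the same libraries, and binding was not measured. The endothelial marker KDR was called in 2 of the comparisons in which KLF2 was (NRF2 w/o against with Cyss, log2FC 0.65, and NRF2 against GFP w/o Cyss, log2FC 0.45), while the defining markers CDH5, VWF and TEK stayed near 0 in every group. The second of these calls was lost with DESeq2 and without GFP w/o Cyss replicates 1 or 2 or NRF2 w/o Cyss replicate 3. The leukocyte marker PTPRC went the other way in that comparison, at 29.6 to 40.4 normalized counts in GFP and 18.8 to 26.6 in NRF2 cells (log2FC -0.78, adjusted p = 0.0334), a call lost with DESeq2 and without GFP w/o Cyss replicates 1 or 2. KDR had 36.4 to 51.4 normalized counts in NRF2 cells with Cyss and 64.7 to 81.6 w/o Cyss, and the part of either marker in the result for KLF2 was not tested.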

How the data were processed

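The 12 libraries were mRNA-seq libraries (TruSeq v2) of Hs 578T cells, 3 in each of 4 groups taken from the labels. The authors aligned reads with TopHat2 2.1.0 and Bowtie to hg19 and deposited raw HTSeq 0.11.2 counts per gene symbol, 1 file per library, and the annotation version is not given in the sources used here. Reads that HTSeq left unassigned, 15.9% to 17.1% of each library, were kept out of library sizes and tests.

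Counts were tested with edgeR 4.0.16 (R 4.3.3; TMM, quasi-likelihood test, two-sided) on the 6 libraries of each comparison, for genes averaging 10 or more normalized counts in either group, and p-values were adjusted by the Benjamini-Hochberg method over all genes tested. The interaction used all 12 libraries and no fold threshold. The SE is the log2FC divided by the square root of F. Likeness used log2 CPM (prior count 2). DESeq2 1.42.0 was an alternative, in which a gene left without an adjusted p by its filter on low counts counted as not called. The scripts were tested on simulated data. Exons and 3′ UTRs came from GENCODE on GRCh37, promoters from RefSeq (GRCh38.p14). The members, lists and tests were chosen with earlier results of these data known. Genes named are the 10 members, list genes called in a comparison, the 3 genes most like each DEG member, markers and NFE2L2. MEF2C, MEF2D, FBXW7, SP1, SP2, NOS3, S1PR1, MAOA, MAOB and the corepressor genes were named after their values were seen. The result of 1 marker gene is not reported here.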

Additional observations from a re-analysis of the deposited data

Results flagged for a closer look

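The response to Cyss deprivation was called as differing between GFP and NRF2 cells for 4 of the 10 factors, by the interaction test in the fit of all 12 libraries (edgeR quasi-likelihood test). The log2FC of the interaction was 0.33 for KLF6 (95% interval 0.18 to 0.48), 0.26 for KLF13 (0.11 to 0.40) and 0.23 for KLF3 (0.07 to 0.39), each with the more positive response in NRF2 cells. It was -0.29 for KLF4 (-0.46 to -0.12), which had the larger response in GFP cells. Over all genes, 15.1% were called by this test.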

How the results depend on the processing

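KLF4 in both responses to Cyss deprivation, KLF6 and KLF13 in NRF2 cells, and the interactions of these 3 factors kept their direction and their call under every alternative run. With no fold threshold, the members called were 3 higher and 1 lower in GFP cells w/o Cyss, 8 higher in NRF2 cells w/o Cyss, 1 lower in NRF2 against GFP cells with Cyss, and 4 higher and 1 lower between them w/o Cyss. Between populations w/o Cyss, the DESeq2 Wald test called 0 higher (KLF2, log2FC 0.37), and scaling by library size only called 1 lower (KLF4, -0.34, adjusted p = 0.00293). That scaling also ended the interactions of KLF3 (0.18, adjusted p = 0.139), CREBBP and WWP1, both PDGFA calls w/o Cyss and the ZEB1 call in NRF2 cells w/o Cyss. It moved the split of all genes called to 936 higher and 1397 lower in NRF2 cells w/o Cyss (from 1176 and 887), to 876 and 1001 between populations w/o Cyss (from 1034 and 708) and to 1124 and 1981 for the interaction (from 1585 and 1084). It also turned the sign of values near 0, to -0.021 for KLF11 in NRF2 cells and to 0.00273 for KLF4 and 0.00773 for KLF13 between populations with Cyss, where the edgeR default filter gave 1.94e-04 for KLF13. With the DESeq2 Wald test all genes called between populations with Cyss were 91 higher and 14 lower (from 237 and 35), and those lower w/o Cyss 422 (from 708). With no filter, those lower were 185 (from 93) in GFP cells w/o Cyss and 66 (from 35) between populations with Cyss, which became 21 with all 12 libraries in the fit. At an adjusted p under 0.05 these were 17, the KLF3 interaction was not called, and 528 genes had a more negative interaction (from 1084).

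Leaving out 1 library at a time gave 0 to 2 members higher and 0 to 1 lower in NRF2 against GFP cells w/o Cyss, 3 to 5 higher in NRF2 cells w/o Cyss, and 2 to 5 higher with 1 lower for the interaction, where 5 (KLF10 and KLF11 added) came without NRF2 w/o Cyss replicate 3. Values that changed sign were KLF5 in GFP cells (-0.047 to 0.11), KLF10 in NRF2 cells (-0.056 to 0.00657), KLF9 in the interaction (-0.00873 to 0.13) and, between populations with Cyss, KLF2 (-0.061 to 0.099), KLF4 (-0.059 to 0.042), KLF5 (-0.13 to 0.010), KLF6 (-0.043 to 0.000915), KLF7 (-0.045 to 0.00122) and KLF13 (-0.025 to 0.038). Same-numbered libraries of different groups had correlations of their deviations from -0.26 to 0.25 over 18 pairs (median 0.031). Those with different numbers had -0.39 to 0.32 over 36 pairs (median -0.026). Deviations within a group of 3 are tied to each other, so that these values cannot decide whether the replicate numbers pair the libraries. The labels do not say that they do. With the replicate number as a block the KLF11 interaction was called (0.23, adjusted p = 0.0965), no other member call changed, CDKN1A in GFP cells and KLF16 between populations w/o Cyss became DEGs, and 280 genes were higher and 106 lower in GFP cells w/o Cyss. The cause of these shifts was not tested. KLF2 had the fewest reads of the members, 72 to 119 per library.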
